A study of Mus musculus with 2 samples.

Results

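Islet pericytes, the contractile cells that wrap the capillaries of the islet, were picked out of single-cell libraries of pancreatic islets by the UMIs of 4 marker genes. A UMI (unique molecular identifier) tags 1 captured RNA molecule. A droplet was a member when Rgs5, Ndufa4l2, Higd1b and Cox4i2 together gave at least 5 UMIs with at least 2 of the 4 detected, and when this sum was larger than that of 4 stromal genes (Dcn, Col1a1, C3, Ccl21a) and that of 4 endothelial genes (Plvap, Flt1, Kdr, Esm1). It also had to pass the cell filter (above 200 but below 6000 detected genes, below 60000 UMIs, a mitochondrial share below 10%) and to have less than 15% of its UMIs from the 5 islet hormone genes Ins1, Ins2, Gcg, Sst and Ppy. The rule found 131 pericytes among 7765 kept barcodes of 10538 in all. Because the members were selected on the measured values of these genes, the level of the rule genes in them is a description and no finding.

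The islets came from wild-type C57BL/6J females. The multipara mice entered the study at 9 weeks of age, went through 3 pregnancies in a row and were sampled 3 weeks after the last delivery. The controls were virgin mice matched for age. Each group was a single 10x Chromium 3′ library (v3.1 chemistry) made after trypsin dissociation, and the number of mice in a library is not given in the labels. With 1 library per group no difference has a replicate check, no test between groups was possible, and what follows compares 2 libraries rather than 2 conditions. The intervals are exact 95% intervals (Clopper-Pearson for shares, Poisson for summed UMIs, conditional binomial for log2 ratios) and cover counting error only.

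Pericytes are mural cells: they share the basement membrane of the capillary with the endothelium, depend on PDGF-BB acting on the receptor Pdgfrb for their recruitment, and tune capillary diameter through a smooth-muscle-like actin and myosin apparatus. In the islet they answer to sympathetic and purinergic signals and to vasoactive peptides, lay down matrix, and secrete growth factors such as Bmp4 that act on beta cells. They are usually told from fibroblasts by Rgs5, Cspg4 (NG2), Kcnj8 and Abcc9 and by the absence of Pdgfra, and from arteriolar smooth muscle by low levels of late contractile genes such as Cnn1.

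Total depth was 94853806 UMIs over 5463 virgin barcodes and 82503776 UMIs over 5075 multipara barcodes. The 65 virgin pericytes had 1353 to 6950 UMIs with a median of 3296, and the 66 multipara pericytes 1742 to 13937 with a median of 3494.5. Their summed depth was 231670 and 239714 UMIs, so a gene at 0 in every member is limited to 12.9 CPM (counts per 1000000, here UMIs of a gene over all UMIs of the summed cells) in the virgin library and 12.5 CPM in the multipara library by the count of 3 that 0 allows. Endocrine droplets, those at or above the hormone limit, had medians of 21944 and 22722 UMIs. The libraries had 7 barcodes in common, and no pericyte was among them. Scrublet marked 1.82% and 1.90% of kept droplets as doublets, of which 0 and 1 were pericytes.

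Every member lay above the threshold of 5 marker UMIs. The lowest marker sums inside it were 8, 10 and 11 UMIs in the virgin library and 10, 11 and 12 in the multipara library, against medians of 39 and 39.5 and highest values of 129 and 118. Around the threshold, 23 virgin and 10 multipara barcodes under the hormone limit carried 3 to 7 marker UMIs, members or not. All 4 rule markers were detected in 52 members of each library. Just outside the rule were droplets with many marker UMIs but more of another class: 7 of 270 endothelial droplets in the virgin library and 22 of 228 in the multipara library held at least 5 pericyte marker UMIs, with median depths of 12866 and 14051.5 UMIs.

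A few members stood apart. In the virgin library 4 members held 5 to 21 UMIs of the stromal rule genes, with 4, 12, 17 and 19 UMIs of Dcn, a matrix proteoglycan made by fibroblasts, and 1 of these 4 carried 119 of the 139 virgin Apoe UMIs. In the multipara library 1 member held 32 UMIs of the endothelial rule genes. The deepest multipara member, with 13937 UMIs, was the pericyte that Scrublet marked, and it carried 102 UMIs of Meg3, 63 of Chgb, 57 of Stmn1, 35 of Dgkh and 27 of Chga but 0 of Acta2. These 6 members were kept, as the rule keeps them, and results that rest on them are given with and without them, a choice made after seeing the data.

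Markers of other islet cells were measured in the members by list. Of the endothelial markers 7 of 12 were at 0 in the virgin members and 1 of 12 in the multipara members, with a median of 1 UMI per cell in each. A single multipara cell held 60 of the 136 multipara UMIs of this list. Esm1, Ly6c1 and Cdh5 were each detected in only 1 multipara cell. Among 11 fibroblast markers 4 were at 0 in the virgin members and 9 in the multipara members, with Pdgfra, the defining fibroblast receptor, at 0 in both. The fibroblast list summed to 314 and 204 UMIs with a median of 3 per cell in each library. Schwann cell and glial markers summed to 124 and 114 UMIs, in 47 virgin and 41 multipara cells, with Sox10, S100b and Gfap at 0 in both. T cell, B cell, macrophage, ductal, acinar and mesothelial markers summed to at most 13 UMIs per list and library. The 8 beta cell markers summed to 23 to 236 UMIs per virgin pericyte (median 52) and to 101 to 239 per multipara pericyte (median 133.5). The median of hormone UMIs per droplet was 58 in pericytes, 60 in endothelial and 65.5 in stromal droplets of the virgin library. In the multipara library it was 132 in pericytes and 136 in endothelial droplets, and 94 in the 4 stromal droplets.

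Pericytes were a small part of both libraries. They were 65 of 4391 kept virgin droplets (1.48%, 1.14 to 1.88) and 66 of 3374 kept multipara droplets (1.96%, 1.52 to 2.48), and these intervals overlapped. Among droplets under the hormone limit the shares were 6.83% (5.31 to 8.62) and 11.0% (8.60 to 13.8), a denominator that other non-endocrine cells also set, since Dcn-positive stromal droplets numbered 58 in the virgin library and 4 in the multipara library. Relative to pericytes and endothelial cells together, the pericyte share was 19.4% (15.3 to 24.1) and 22.4% (17.8 to 27.7). Outside the filter, the mitochondrial limit alone left out 5 virgin barcodes and 1 multipara barcode that met the rest of the rule.

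The rule markers separated pericytes from every other class by a wide margin in both libraries, which the rule itself brings about. Rgs5, a regulator of G-protein signaling on chromosome 1 (GRCm38 chr1:169655501-169695813), had a level of 8650 CPM (8270 to 9030) among virgin and of 7520 CPM (7180 to 7880) among multipara pericytes, with 2 to 94 UMIs per virgin cell (median 27) and 2 to 82 per multipara cell (median 24.5). Ndufa4l2, a homolog of a respiratory chain subunit (chr10:127514967-127517154), was at 2580 and 2620 CPM, against 29.2 and 98.9 CPM in endothelial droplets. Higd1b, a hypoxia-induced-domain protein (chr11:102835849-102838040), was at 868 and 684 CPM. Cox4i2, the hypoxia-type isoform of cytochrome c oxidase subunit 4 (chr2:152754173-152765037), was at 993 and 1080 CPM. In endocrine droplets none of these 4 genes exceeded 0.901 CPM.

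Acta2, smooth muscle alpha-actin (chr19:34241090-34255590, minus strand), was not part of the rule and had a level of 2680 CPM (2470 to 2900) among virgin and of 2520 CPM (2320 to 2730) among multipara pericytes. It was at 23.3 and 69.5 CPM in endothelial droplets and at 0.288 and 0.225 CPM in endocrine droplets. When every cell was thinned to 2000 UMIs, which left 61 and 62 pericytes, Acta2 was detected in 68.9% of virgin and 87.1% of multipara pericytes (73.8% and 89.4% before thinning). The same share in thinned endocrine droplets, which should lack the gene, was 0.0300% and 0. The part of free RNA in the pericyte values was not tested.

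The members carried the pericyte program beyond the rule. Of 26 pericyte identity genes with at least 20 UMIs, 22 (84.6%) had a higher CPM in pericytes than in each of the endothelial, stromal and endocrine classes, where 51.5% of all 3877 genes tested did so. The minimum counts pericyte UMIs only, for the list and for all genes alike. It favors genes that pericytes express, so such counts are a description. Pdgfrb, the PDGF-BB receptor, was at 807 CPM in virgin and 763 CPM in multipara pericytes and at 117 and 276 CPM in the stromal droplets. Notch3, the mural Notch receptor, was at 721 and 613 CPM, and Cspg4 at 432 and 463 CPM. Kcnj8 and Abcc9, which encode the pore and the sulfonylurea-receptor subunit of the vascular KATP channel, were at 160 and 225 CPM and at 294 and 384 CPM. Mcam, an adhesion molecule also found on endothelium, was not higher in pericytes than in endothelium, with 272 and 342 CPM in pericytes and 360 and 401 CPM in endothelial droplets.

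Among genes of at least 100 CPM, the 20 with the largest fold over the mean of the other 3 classes were the 4 rule markers and Acta2, then Casq2, Cspg4, Tagln, Olfr558, Myl9, Art3, Rgs4, Myh11, Aspn, Tpm2, Gucy1b1, Rrad, Notch3, Pdgfrb and Mnd1. Casq2, a calcium-storing protein of the sarcoplasmic reticulum, was at 505 and 555 CPM, with 7.31 and 33.2 CPM in endothelial droplets and 0 in stromal droplets. Olfr558, an olfactory-receptor-family gene, was at 345 and 426 CPM, against 3.99 and 12.8 CPM in endothelial droplets. Aspn, a small leucine-rich matrix proteoglycan, was at 1190 and 1020 CPM. The smooth muscle marker Cnn1 gave 0 UMIs in both libraries, whereas Myh11, smooth muscle myosin heavy chain, was at 540 and 588 CPM. Most of the smooth muscle list was unlike Cnn1. Its 8 markers summed to 942 UMIs in 63 of 65 virgin pericytes (median 11) and 888 in 64 of 66 multipara pericytes (median 8). All 5 of them with at least 20 UMIs were above each other class. The plot of levels by cell class shows how these genes sit.

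**Figure D1:**
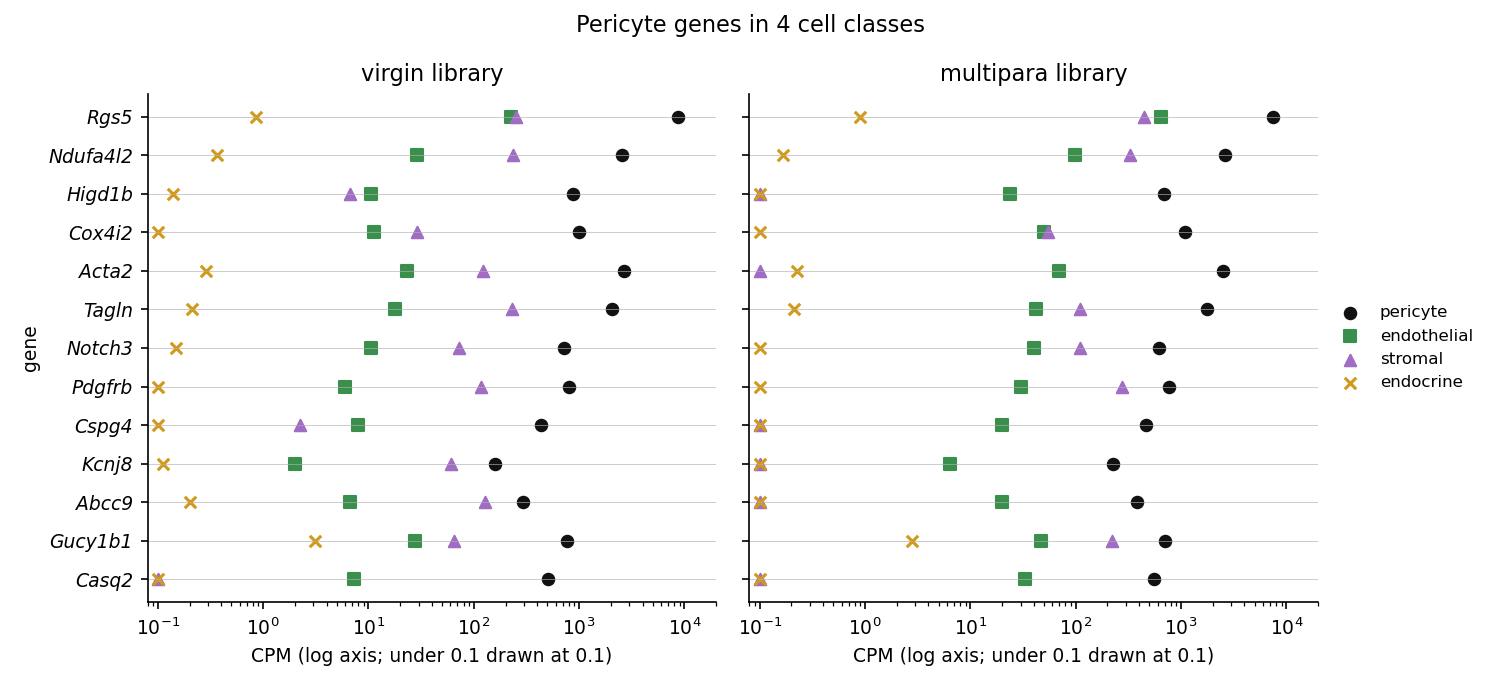
Summed UMIs of 13 genes as CPM (x axis, log scale) in pericytes, endothelial, stromal and endocrine droplets of the virgin library (left) and the multipara library (right), with values under 0.1 CPM drawn at 0.1. Pericytes are rightmost for all 13 genes in both panels. The first 4 genes chose the pericytes, and the multipara stromal points rest on 4 droplets.

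Genes of the respiratory chain were represented by both usual and tissue-specific isoforms. Ndufa4, the ubiquitous relative of Ndufa4l2, gave 8 UMIs in 8 virgin pericytes and 37 UMIs in 17 multipara pericytes, that is 34.5 and 154 CPM, against 405 and 372 CPM in endothelial and 144 and 154 CPM in endocrine droplets. The multipara value dropped to 117 CPM without the members that stood apart, which held 11 of its UMIs. Cox4i1, the usual subunit 4, was at 678 CPM in virgin and 797 CPM in multipara pericytes, so both isoforms of this subunit were present. Of 17 respiratory chain isoform genes with at least 20 UMIs, 12 (70.6%) were above each other class, against 51.5% of all 3877 genes. The share was larger for nuclear oxidative phosphorylation genes as a whole (86.7% of 75) and for mitochondrially encoded genes (91.7% of 12).

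All 22 vascular tone receptors and effectors with at least 20 UMIs were above each of the 3 other classes, against the 51.5% of all genes. Genes entered this count through their pericyte UMIs, so it is a description and no independent evidence of a pericyte trait. Gucy1b1 and Gucy1a1, the subunits of the nitric oxide receptor guanylate cyclase, were at 773 and 587 CPM in virgin and at 705 and 446 CPM in multipara pericytes. The endothelin receptor Ednra was at 272 and 263 CPM, with 8.79 CPM in endothelial droplets of both libraries together, and the endothelin receptor Ednrb, which endothelium also expresses, was at 531 and 705 CPM. The angiotensin receptor Agtr1a was at 194 and 167 CPM in 30 and 31 cells. The sphingosine-1-phosphate receptor S1pr3 was at 242 and 284 CPM, and the neuropeptide Y receptor Npy1r at 112 and 100 CPM. Of the 50 genes of this list, 11 were at 0.

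Growth factor genes were sparse. Pdgfa, a PDGF ligand, was at 419 and 580 CPM. Bmp4, a ligand linked to beta cell maturity, gave 17 and 11 UMIs and Bmp5 32 and 20. The Notch target Heyl was at 263 and 279 CPM, against 9.11 CPM in endothelial droplets of both libraries together. Transcription factors of islet and pancreatic mesenchyme were present, with Tcf21 at 164 and 154 CPM, Foxs1 at 380 and 279 CPM and Tbx2 at 380 and 325 CPM. Of the matrix genes, Mgp, an inhibitor of calcification, was at 17500 and 17100 CPM in pericytes and at 7980 and 9940 CPM in stromal droplets.

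Receptors for hormones of pregnancy were close to the detection limit. Prlr, the prolactin and placental lactogen receptor, gave 5 UMIs in 5 virgin pericytes and 10 UMIs in 8 multipara pericytes. Esr1, estrogen receptor alpha, gave 3 and 1 UMIs, and Ghr, the growth hormone receptor, 6 and 3. Pgr, Esr2, Lepr and Oxtr were at 0 in every member, which allows up to 12.9 and 12.5 CPM. A difference between the libraries in these genes was not detectable at this depth.

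Acta2 varied widely from cell to cell. It ranged from 0 to 90 UMIs per virgin pericyte (median 3) and from 0 to 68 per multipara pericyte (median 5), and as a share of the cell's UMIs from 0 to 1.29% (median 0.116%) and from 0 to 1.28% (median 0.153%). It was at 0 in 17 virgin and 7 multipara cells, while the 10 cells with most of it held 57.7% and 53.3% of all Acta2 UMIs. Cells with at least 0.2% of their UMIs from Acta2 are called Acta2-high here. They were 25 of 65 virgin pericytes (38.5%, 26.7 to 51.4) and 29 of 66 multipara pericytes (43.9%, 31.7 to 56.7), and the intervals overlapped. The class is a range and not a type, since 5 virgin and 10 multipara cells lay within 25% of the cut. Median depth was 3583 UMIs in Acta2-high and 3105 in the other virgin cells, and 3612 and 3179 in the multipara cells.

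**Figure D2:**
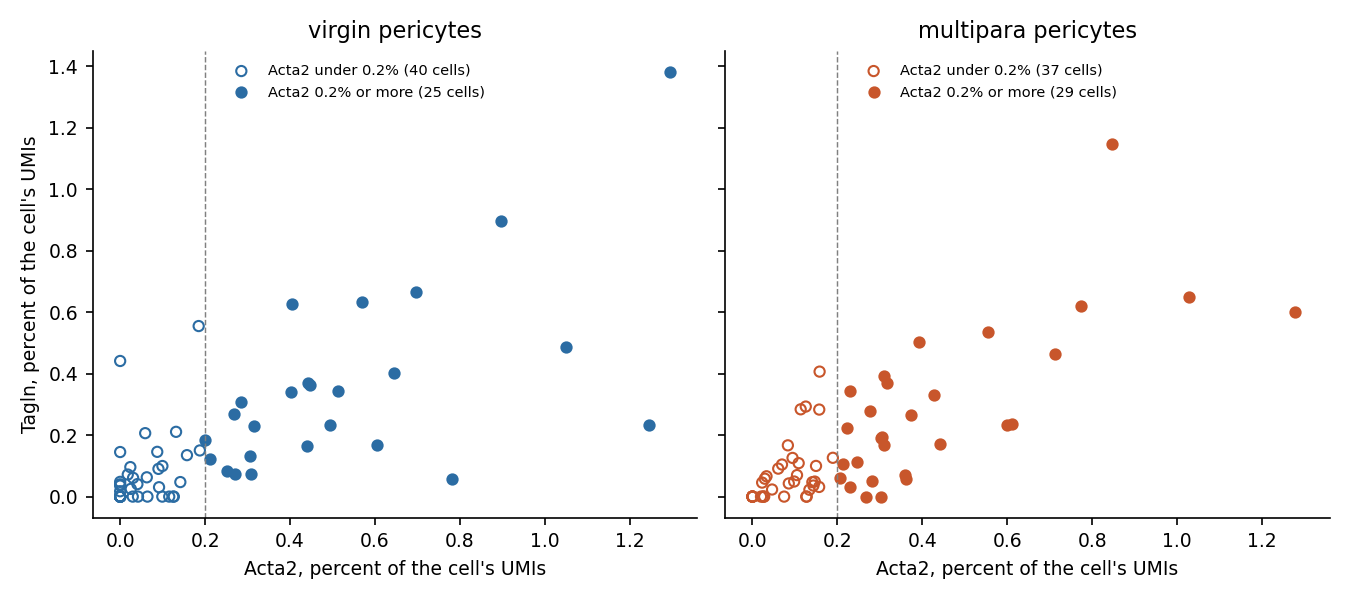
Share of each pericyte's UMIs from Acta2 (x axis, percent) and from Tagln (y axis, percent) in the virgin library (left) and the multipara library (right), with 1 point per cell and Acta2-high cells filled. The 25 filled virgin cells and 29 filled multipara cells begin at the dashed line at 0.2%, and the highest Acta2 shares are 1.29% and 1.28%.

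Contractile genes moved with Acta2 in both libraries. Leaving out Acta2 itself, 21 of 22 contractile genes with at least 50 UMIs were higher in Acta2-high cells of both libraries (all but Smtn), where 450 of all 1552 genes tested were, and 7 of the 22 were at least 2-fold higher in both, against 16 (1.03%) of all genes. Tagln, transgelin, an actin-binding protein, was at 3820 CPM in Acta2-high and 710 CPM in the other virgin cells (log2 ratio 2.43, 2.10 to 2.77), and at 3070 and 639 CPM in multipara cells (2.26, 1.91 to 2.63). Over cells thinned to 2000 UMIs, Pearson's r between Acta2 and Tagln was 0.69 in 61 virgin cells and 0.78 in 62 multipara cells, a description over cells that share a library. The virgin cells included members that stood apart, with 90 and 52 UMIs of Acta2 and 96 and 52 of Tagln before thinning. The virgin r without these members was not computed. Myh11 was at 794 against 344 CPM and at 838 against 377 CPM. Myl9, a regulatory myosin light chain, was at 2190 against 931 CPM and at 1730 against 724 CPM. Csrp1, a LIM-domain protein of actin bundles, had log2 ratios of 2.43 (1.21 to 3.87) and 1.30 (0.25 to 2.43). Outside the list, the chemokine-scavenging receptor Ackr3 was at 407 against 107 CPM and at 419 against 92.4 CPM, and the Z-line protein gene Pdlim3 at 407 against 115 CPM and at 410 against 169 CPM.

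The KATP channel genes ran the other way. Of all genes, 5 (0.322%) were at least 2-fold lower in Acta2-high cells of both libraries, and they were Kcnj8, Abcc9, Sox4, Ankrd12 and Hspa1b. Kcnj8 was at 49.7 CPM in Acta2-high and 244 CPM in the other virgin cells (log2 ratio -2.30, -4.02 to -0.93) and at 91.1 and 339 CPM in multipara cells (-1.90, -3.05 to -0.88). Abcc9 was at 149 and 405 CPM and at 200 and 539 CPM. Rgs5 and Pdgfrb differed little, with log2 ratios of 0.23 and 0.03 for Rgs5 and of -0.33 and -0.35 for Pdgfrb. Without the members that stood apart, 2 of which were Acta2-high, 19 of 22 contractile genes were higher in both libraries. At least 2-fold higher were 5 of the 22, against 13 of all 1392 genes. Tagln kept log2 ratios of 1.96 and 2.08, while Myh11 had 1.17 in virgin and 0.96 in multipara cells. Kcnj8, Abcc9, Sox4 and Hspa1b, but not Ankrd12, were among 8 of the 1392 genes at least 2-fold lower.

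**Figure D3:**
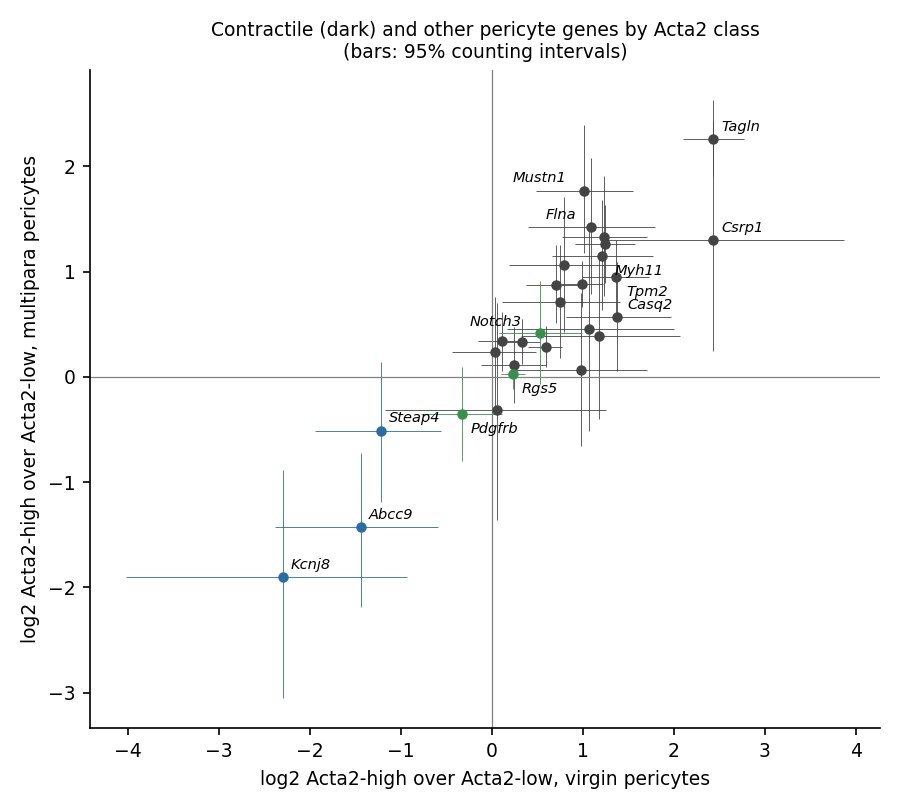
log2 ratio of CPM in Acta2-high over other pericytes in the virgin library (x axis) and the multipara library (y axis) for contractile genes (dark), Rgs5, Pdgfrb and Notch3 (green) and Kcnj8, Abcc9 and Steap4 (blue), with 95% counting intervals as bars. All contractile genes but Smtn lie at the upper right, up to 2.43 and 2.26 for Tagln, and Kcnj8 and Abcc9 at the lower left.

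Because the contractile genes moved together, the 250 bases before their start sites were searched for the CArG box, the site of serum response factor, whose pattern reads the same on both strands. The windows were those of RefSeq on GRCm38.p6, which held 23 of the 29 contractile genes (not Tagln or Myh11). At least 1 window with the motif was found for 4 of the 23 genes (17.4%), against 439 of 27025 genes overall (1.62%). Such a match describes the letters and is no evidence of binding. The 4 windows are shown with the motif in capitals, 5′ to 3′ and ending at the base before the start site, followed by that of Acta2, which held no exact match. They lie at chr2:156775214-156775463 (plus strand) for Myl9, chr10:128493010-128493259 (minus strand) for Myl6, chr10:79988350-79988599 (plus strand) for Cnn2, chr11:120348496-120348745 (minus strand) for Actg1 and chr19:34255374-34255623 (minus strand) for Acta2.
Myl9: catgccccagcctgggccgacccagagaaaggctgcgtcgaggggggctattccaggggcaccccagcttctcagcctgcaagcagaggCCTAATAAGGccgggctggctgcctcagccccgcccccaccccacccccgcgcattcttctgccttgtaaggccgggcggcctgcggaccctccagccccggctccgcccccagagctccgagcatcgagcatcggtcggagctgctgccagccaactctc
Myl6: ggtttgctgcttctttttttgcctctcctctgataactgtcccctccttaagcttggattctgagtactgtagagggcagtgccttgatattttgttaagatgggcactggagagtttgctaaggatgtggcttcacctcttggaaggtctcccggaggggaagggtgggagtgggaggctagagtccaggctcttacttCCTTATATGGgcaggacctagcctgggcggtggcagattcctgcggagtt
Cnn2: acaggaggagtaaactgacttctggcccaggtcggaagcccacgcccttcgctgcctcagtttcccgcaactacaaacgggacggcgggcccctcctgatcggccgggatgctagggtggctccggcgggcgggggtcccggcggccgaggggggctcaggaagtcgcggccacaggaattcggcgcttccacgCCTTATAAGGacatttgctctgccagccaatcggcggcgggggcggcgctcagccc
Actg1: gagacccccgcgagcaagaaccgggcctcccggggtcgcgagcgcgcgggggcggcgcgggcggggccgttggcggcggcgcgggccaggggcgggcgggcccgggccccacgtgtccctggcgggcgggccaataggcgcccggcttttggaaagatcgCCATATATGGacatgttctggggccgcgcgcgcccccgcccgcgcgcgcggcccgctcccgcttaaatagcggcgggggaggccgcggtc
Acta2: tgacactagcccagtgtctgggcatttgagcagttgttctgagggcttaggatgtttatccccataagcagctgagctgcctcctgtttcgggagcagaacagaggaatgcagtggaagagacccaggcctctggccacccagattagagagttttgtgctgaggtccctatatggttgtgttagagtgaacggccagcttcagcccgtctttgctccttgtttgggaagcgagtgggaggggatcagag
The motif began 161 bases before the start in Myl9 and 50 in Myl6, whose log2 ratios of Acta2-high over other cells were 1.24 and 1.26 for Myl9 and 0.99 and 0.88 for Myl6. It began 56 bases before the start in Cnn2, with ratios of 1.07 and 0.46 (the latter with an interval of -0.51 to 1.46), and 90 bases before in Actg1, a cytoplasmic actin, with ratios of 0.24 and 0.11 and intervals that reached 0. Having the motif therefore did not go with a large ratio in every case.

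Few genes were 2-fold apart between the pericytes of the libraries. With 1 library per group, the comparison cannot tell an effect of repeated pregnancy from any other difference between the libraries. Among the 1543 genes that reached 50 UMIs over the pair of libraries, 16 (1.04%) were at least 2-fold higher and 17 (1.10%) at least 2-fold lower in the multipara pericytes, and over all genes that reached 20 UMIs the log2 ratio had a median of -0.0492. Without the 6 members that stood apart the counts were 9 (0.646%) and 8 (0.574%) of 1393 genes, of which 7 and 6 had also been counted with all members. Lower minimums give larger shares: at a minimum of 20 UMIs, 123 (3.17%) and 131 (3.38%) of 3877 genes were 2-fold higher and lower.

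**Figure D4:**
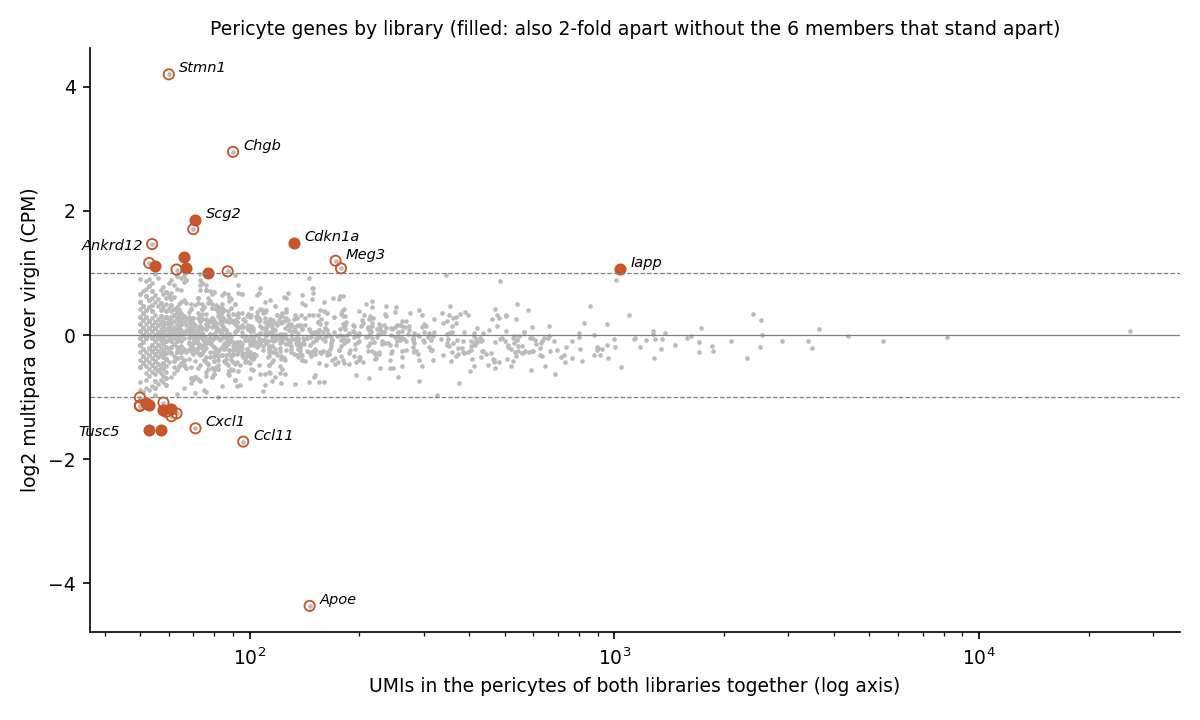
log2 ratio of CPM in multipara over virgin pericytes (y axis) against the summed UMIs of the gene (x axis, log scale) for genes that reached 50 UMIs, the rule genes left out. Circles mark the 16 genes above and the 17 below the dashed 2-fold lines, and filled circles those that were also 2-fold apart without the 6 members that stand apart.

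Several of the largest differences rested on 1 droplet or on the members that stood apart. Stmn1, which encodes a microtubule-destabilizing protein, had 3 UMIs in virgin and 57 in multipara pericytes, all 57 in the deepest member. The same droplet held 63 of the 80 multipara UMIs of Chgb, a secretory granule protein, and 102 of the 121 of Meg3, a noncoding RNA, whose log2 ratio went from 1.20 to -0.63 without the members that stood apart. Apoe, the lipid-carrying apolipoprotein, went from -4.36 to 0.15. The eosinophil chemokine Ccl11 went from -1.72 (-2.46 to -1.02) to 0.20, and Cxcl1, a neutrophil chemokine, from -1.50 to -0.22.

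Cdkn1a, the cell cycle inhibitor p21 (chr17:29090976-29100727), was the gene with the highest ratio among those with at least 100 UMIs. It was at 147 CPM (102 to 205) in virgin pericytes, with 0 to 7 UMIs per cell, and at 409 CPM (332 to 498) in multipara pericytes, with 0 to 9 UMIs per cell, a log2 ratio of 1.48 (0.90 to 2.09). It was detected in 16 of 65 and 33 of 66 cells, and in 19.7% and 38.7% of cells thinned to 2000 UMIs, against 6.15% and 7.78% of thinned endocrine droplets. Without the members that stood apart the ratio was 1.41 (0.83 to 2.02). The level in endothelial droplets was 685 CPM in virgin and 807 CPM in multipara (0.24, 0.12 to 0.36), above that of pericytes in both libraries. Gdf15, a stress-induced cytokine of the TGF-beta family, gave 21 UMIs in 12 virgin cells and 46 in 19 multipara cells (1.08, 0.31 to 1.90), and the ratio in endothelial droplets was 1.26 (0.45 to 2.14). Sox4, a transcription factor, gave 19 and 47 UMIs (1.26, 0.46 to 2.11) and Sqstm1, the autophagy receptor p62, 28 and 59 (1.03, 0.35 to 1.73).

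Some heat shock genes had higher levels in the multipara pericytes and others did not. Hspa1a and Hspa1b encode nearly identical forms of HSP70, so reads may be split between them and they are given together: 396 UMIs in 58 virgin cells (1710 CPM) and 759 UMIs in 63 multipara cells (3170 CPM), with 0 to 22 UMIs per cell (median 5) and 0 to 91 (median 8.5). The log2 ratio was 0.89 (0.71 to 1.07), and 0.94 (0.76 to 1.13) without the members that stood apart. Of the pair, Hspa1a alone had a ratio of 0.53 (0.50 to 0.55) in endocrine and of -0.06 (-0.21 to 0.09) in endothelial droplets. Hspb1, the small heat shock protein HSP27, was at 725 CPM in virgin and 1330 CPM in multipara pericytes (0.88, 0.60 to 1.15), with a ratio of -0.11 in endothelial droplets. Hspe1, a mitochondrial chaperonin gene, had a ratio of -0.38, and Hspd1, which encodes its partner, -0.41. Klf4, a transcription factor of vascular cells that dissociation also induces, was at 492 and 964 CPM (0.97, 0.64 to 1.31) with 0 to 14 and 0 to 23 UMIs per cell, and at 1200 CPM in endothelial droplets of either library.

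Of the 7 measured stress genes that the study names, 6 were higher and 1 lower, with a median log2 ratio of 0.456 that was 0.631 without the members that stood apart. The study chose this list on these samples, so it is no independent evidence of a direction. Atf3 was at 1050 and 1400 CPM (0.41, 0.17 to 0.65) and Ddit3, which encodes CHOP, at 104 and 87.6 CPM (-0.24, -1.16 to 0.66). The wider list of 39 dissociation-response genes had 20 genes higher and 19 lower, with a median of 0.0348 that was 0.157 without the members that stood apart. Its intervals lay above 0 for 13 genes and below 0 for 4. Fos (0.25, 0.14 to 0.36) and Jun (0.34, 0.22 to 0.46) were higher and Egr1 (-0.62, -0.85 to -0.40) and Jund (-0.25, -0.39 to -0.12) lower in the multipara pericytes. Dissociation and library preparation cannot be told apart from the groups. Of 29 endoplasmic reticulum folding genes, 18 were higher and 11 lower, with a median of 0.0390 and none 2-fold apart. Hspa5, the chaperone BiP, was at 721 and 801 CPM (0.15, -0.15 to 0.46).

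Several islet hormone and granule genes differed between the pericytes of the libraries, in both directions. Iapp, the beta cell peptide amylin, gave 1 to 18 UMIs per virgin pericyte (median 5) and 5 to 20 per multipara pericyte (median 11), a log2 ratio of 1.06 (0.87 to 1.25). The median in endothelial droplets was 5 and 12 UMIs, close to the pericyte values. Ins2 and Ins1, the insulin genes, had ratios of 1.23 (1.16 to 1.30) and 1.35 (1.24 to 1.46) in pericytes and of 0.95 and 0.97 in endothelial droplets. Gcg, the alpha cell hormone glucagon, had a ratio of -0.51 (-0.70 to -0.32) in pericytes and the same value in endothelial droplets. Scg2, a granule protein, had a ratio of 1.85 (1.01 to 2.78), and Chga 1.07 (0.61 to 1.56), or 0.74 (0.24 to 1.25) without the members that stood apart. In endothelial droplets the ratios of summed UMIs ran the other way for Scg2 (-0.67), Chga (-1.11) and Iapp (-0.60). The part of free hormone RNA in these values was not tested. Endocrine droplets had 31400 and 33400 CPM of Iapp, against 1420 and 2960 CPM in pericytes.

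More matrix genes were lower than higher in the multipara pericytes. Of 17 basement membrane genes, 12 were lower and 5 higher, with a median log2 ratio of -0.305, and 0 were 2-fold apart in either direction. Of all 3877 genes, 1867 were higher and 2010 lower. Col4a1, a chain of type IV collagen, was at 1020 and 726 CPM (-0.50, -0.79 to -0.21), and its partner Col4a2 at 531 and 430 CPM (-0.31, -0.70 to 0.08). Bgn, biglycan, was at 1010 and 588 CPM (-0.77, -1.09 to -0.47), or -0.50 (-0.83 to -0.18) without the members that stood apart. Lamb2, the laminin beta-2 chain, was at 199 and 263 CPM (0.40, -0.17 to 0.99). The list median was -0.314 without the members that stood apart and 0.0400 when each cell was thinned to equal depth. Vtn, vitronectin, which pericytes of several tissues express, was at 919 CPM (0 to 21 UMIs per cell, median 2) and 471 CPM (0 to 8, median 1), a ratio of -0.96 (-1.31 to -0.63) that was -0.62 (-0.98 to -0.27) without the members that stood apart. Other genes with the lowest ratios among those with at least 100 UMIs were Prrx1, a mesenchymal homeobox factor (-0.89, -1.50 to -0.31), Cyb5r3 (-0.80), Luc7l2 (-0.77), Inpp4b (-0.76) and Ech1 (-0.75). These 5 had ratios at or below -0.65 without those members, while Gadd45g went from -0.78 to 0.67 and Col3a1 from -0.75 to 0.00. Of 16 interstitial matrix genes 10 were lower, with a median of -0.267, which was -0.0427 without those members.

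With all members at full depth, most genes of inflammation and antigen presentation were also lower, and some rested on few cells. Of 10 cytokine, chemokine and complement genes, 8 were lower, 3 of them 2-fold (3.38% of all genes), and 2 higher, with a median log2 ratio of -0.663 that was -0.147 without the members that stood apart. None of the 3 (Ccl11, Cxcl1 and the monocyte chemokine gene Ccl2) stayed 2-fold lower without those members, and Ccl2 went from -1.14 to -0.07. Serping1, the complement C1 inhibitor, was at 669 and 417 CPM (-0.68, -1.06 to -0.31) and C1s1 at 509 and 325 CPM (-0.65, -1.08 to -0.22). Cxcl10, an interferon-induced chemokine, gave 6 UMIs in 2 virgin cells and 33 in 3 multipara cells, 31 of them in a single cell. Of 21 interferon and antigen presentation genes, 17 were lower, with a median of -0.339. When each cell was thinned to equal depth this median was -0.0235, the same as that of all genes, while the cytokine median was -0.732. Without the members that stood apart the interferon median was -0.177. Irf1, an interferon-response transcription factor, gave 44 UMIs in virgin and 19 in multipara pericytes (-1.26, -2.12 to -0.45), or 24 and 17 (-0.57, -1.56 to 0.39) without them. Isg15 went the other way, at 36 and 49 UMIs with all members (0.40, -0.25 to 1.06) and 14 and 47 without those that stood apart (1.67, 0.79 to 2.65).

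The defining genes of the cell were set against all genes, of which 3.17% were 2-fold higher and 3.38% 2-fold lower at the same minimum. Of 26 pericyte identity genes, 9 were higher and 17 lower, with 0 and 1 of them 2-fold apart and a median log2 ratio of -0.155, and of 24 contractile genes 8 were higher and 16 lower, with a median of -0.113 that was 0.0746 without the members that stood apart. Tagln had a ratio of -0.24 (-0.43 to -0.04) with all members and of 0.30 (0.09 to 0.52) without them. Pdgfrb (-0.08, -0.38 to 0.22), Notch3 (-0.23, -0.56 to 0.10), Cspg4 (0.10, -0.30 to 0.51) and Acta2 (-0.09, -0.25 to 0.08) had intervals that held 0. Without the members that stood apart Acta2 was at 0.28 (0.10 to 0.45), while the intervals of Pdgfrb, Notch3 and Cspg4 still held 0. Among vascular tone genes 9 of 22 were higher, with Ednrb at 0.41 (0.07 to 0.76), Gucy1a1 at -0.40 (-0.77 to -0.02) and Pde5a, a cyclic GMP phosphodiesterase, at -0.69 (-1.31 to -0.09). Gucy1a1 was at -0.29 (-0.68 to 0.10) without the members that stood apart. The intervals of Ednrb, Gucy1a1 and Pde5a each held 0 without the cell with most UMIs of the gene. Of 15 vessel growth factor and receptor genes, 7 were higher, among them Pdgfa at 0.47 (0.09 to 0.86).

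Genes of large complexes shifted by small amounts. Of 80 cytosolic ribosomal protein genes, 72 were lower and 8 higher, with a median log2 ratio of -0.198 that was -0.118 without the members that stood apart, and the list gave 9.07% of virgin and 7.86% of multipara UMIs. Of 75 nuclear oxidative phosphorylation genes, 49 were higher and 26 lower, with a median of 0.133 that was 0.0521 without the members that stood apart. Of all 3877 genes, 153 had an interval above 0 and 207 below. In this list 0 lay below, and the 6 above were Ndufa4, Sdha (0.95, 0.16 to 1.78), Cox7b (0.81, 0.18 to 1.47), Ndufb10 (0.75, 0.25 to 1.26), Cox5a (0.66, 0.04 to 1.30) and Ndufab1 (0.66, 0.04 to 1.30). The intervals of Cox7b (0.63, -0.05 to 1.34) and Cox5a (0.60, -0.03 to 1.26) held 0 without the members that stood apart. Ndufab1 was at 0.62 (-0.01 to 1.27) without the cell with most of its UMIs. The 12 mitochondrially encoded genes had a median of -0.00848. Of 17 glycolysis and hypoxia-target genes, 13 were higher, with a median of 0.0577 that was -0.0145 without those members, and Gapdh was at 630 and 868 CPM (0.46, 0.15 to 0.78). Of 11 pregnancy, steroid and growth hormone receptor and binding protein genes, 9 were lower, with a median of -0.272 that was -0.120 without the members that stood apart, and the IGF-binding protein relative Igfbp7 was at 5540 and 4290 CPM (-0.37, -0.49 to -0.25). Across the 21 lists, 12 medians changed sign under at least 1 other setting. The ribosomal (-0.206 to -0.118), nuclear oxidative phosphorylation (0.0521 to 0.182) and hormone receptor (-0.486 to -0.117) medians were among those that kept theirs under the 15 settings tried. The others were the medians of the pericyte ligand, interstitial matrix, respiratory chain isoform, study stress gene, interferon and cytokine lists. The hormone share of UMIs, which takes part of each total, had medians of 1.69% and 4.085% in the 2 libraries.

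**Figure D5:**
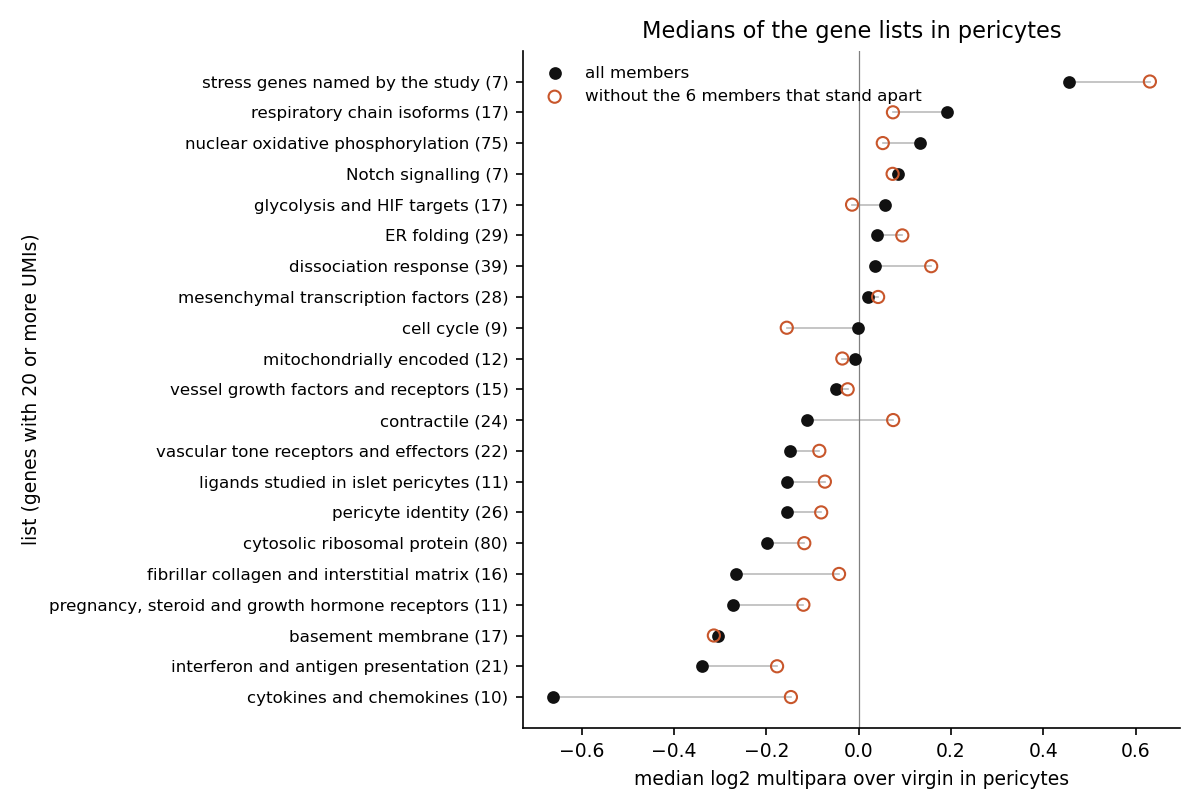
Median log2 ratio of multipara over virgin pericytes (x axis) for 21 gene lists, with the number of genes with at least 20 UMIs in brackets, for all members (filled) and without the 6 members that stand apart (open). The stress genes named by the study are furthest right at 0.456, cytokines and chemokines furthest left at -0.663, and the last moves to -0.147 without those members.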

How the data were processed

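Single-cell RNA of islets was measured in 1 virgin and 1 multipara library. Per the submitters' processing notes the authors used Cell Ranger 3.1.0 and Seurat 3.0 with GRCm38 (mm10), and deposited matrices of unnormalized UMI counts (genes by barcodes). Of 31053 gene identifiers 31011 matched GENCODE M21, from which coordinates were taken. The members, gene lists and thresholds were chosen with earlier results of these data known.

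Cells passing the rule in the report were summed per library and scaled to CPM. Endothelial and stromal droplets were chosen by the mirrored rule. Genes were called apart at 2-fold with at least 50 UMIs, and lists used at least 20. No model or p-value was used, because each group was 1 library. Doublets were marked with Scrublet but not removed. Named genes were the rule genes, the 20 with the highest fold over other classes (20 CPM added to each side), the 10 highest and 10 lowest ratios among genes with at least 100 UMIs in at least 10 cells, and up to 6 members of each list, those with most UMIs or furthest from 0. A few others in the text (Ndufa4, Cxcl10, Isg15, Irf1, Stmn1, genes of the pair Hspa1a and Hspa1b, and genes 2-fold apart) were chosen after their values were seen. Of the list genes 4 could not be used, as they were missing or shared a symbol. Calculations were tested on simulated counts. Python 3.11.15, numpy 2.4.6, scipy 1.17.1, pandas 2.3.3, scanpy 1.11.5, matplotlib 3.10.9, and R 4.3.3 with edgeR 4.0.16 (TMM factors only) were used. Alternatives varied the rule, filters, scaling, depth and members.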

Additional observations from a re-analysis of the deposited data

Results flagged for a closer look

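Among droplets assigned to endothelium, 22 of 228 in the multipara library (9.65%, 6.15 to 14.2) also held at least 5 pericyte marker UMIs, against 7 of 270 in the virgin library (2.59%, 1.05 to 5.27). Their median depths were 14051.5 and 12866 UMIs, and whether they are doublets was not tested.

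For 7 of the genes 2-fold apart in pericytes, the log2 ratio of multipara over virgin had opposite signs in pericytes and in endothelial droplets with both counting intervals clear of 0, and the difference was not tested. The ratios were 1.07 and -1.11 for Chga, 2.95 and -1.76 for Chgb, 1.20 and -1.77 for Meg3, 1.06 and -1.39 for Pcsk1n, 1.85 and -0.67 for Scg2, and -1.26 and 0.43 for Irf1. For Iapp they were 1.06 and -0.60, although the median endothelial droplet held 5 Iapp UMIs in the virgin library and 12 in that of the multipara mice. Without the deepest multipara member the pericyte ratio was 0.80 (-0.41 to 2.09) for Chgb and 0.04 (-0.93 to 1.01) for Pcsk1n. For Meg3 it was -1.39 (-2.23 to -0.60), the same sign as in endothelial droplets. The opposite signs given for these genes, with both intervals clear of 0, thus rested on that droplet. Irf1 was at -0.57 (-1.56 to 0.39) in pericytes without the members that stood apart.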

How the results depend on the processing

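No paired analysis was possible because there was 1 library per group, and for the same reason no replicate could be left out. Alternatives on members that stand apart were chosen after seeing the data. The counts of genes 2-fold higher and lower (16 and 17) became 10 higher with Scrublet doublets or the deepest member left out, 6 and 5 when cells were thinned, 6 lower without Acta2-high cells, 9 lower without members holding 3 or more stromal or endothelial UMIs, and 9 and 8 without all members that stand apart. They were 123 and 131 at a minimum of 20 UMIs and 1 and 0 at 200 UMIs, where fewer genes were tested. At a hormone limit of 5% the multipara share was 1.42%. The Acta2-high share was 15.4% and 12.1% at a cut of 0.5%, and 66.7% in multipara at 0.1%.

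Of 417 gene ratios, 158 changed sign under at least 1 alternative, and for 13 of these the interval of the reported ratio did not hold 0. The values of those 13 follow. Thinning gave 0.01 for Crip1, 0.02 for Sparc and -0.26 for Meg3. Meg3 was -1.39 without Scrublet doublets, the deepest member or its own top cell, where Rrad was -0.03 and Tagln 0.04. Without Acta2-high cells Rplp1 was 0.08 and Rrad -0.00. Without members holding stromal or endothelial UMIs, and without all that stand apart, the values were 0.06 and 0.15 for Apoe, 0.11 and 0.20 for Ccl11, 0.62 and 0.67 for Gadd45g, 0.21 and 0.30 for Tagln, and 0.05 and 0.07 for Vim. The last alternative also gave 0.00 for Col3a1, 0.05 for Gsn, -0.63 for Meg3 and -0.07 for Pcsk1n. Of 21 list medians 12 changed sign, so the direction of most lists depends on the setting. For 4 of these the reported median lay further from 0 than the counting error of the list's sum: thinning gave 0.0168 for identity, 0.192 for vascular tone and 0.0400 for basement membrane, the contractile median was 0.0120 without Acta2-high cells, 0.00419 and 0.0746 without the members just named, and vascular tone was 0.182 at 50 UMIs. Except where fewer genes or members enter, the cause was not tested.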
